A study of Mus musculus with 8 samples.

Results

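The enzymes examined were 4 peptidylarginine deiminases (Padi1, Padi2, Padi3 and Padi4) and 4 transglutaminases (Tgm1, Tgm2, Tgm3 and Tgm5) that modify and crosslink structural proteins of hair and epidermis. Their probes were found by matching the RefSeq accession of every array probe to a RefSeq gene table, which gave 12 probes for the 8 genes, of 20128 genes named and 55603 probes with a usable spot on every array. All 12 were among the 30417 probes tested, meaning that the scanner software marked them well above background on at least 2 of the 8 arrays. Padi2, Padi4, Tgm2 and Tgm3 had 2 probes each, and these are reported separately.

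The RNA came from skin of C57BL/6N mice in 3 groups. They were hair loss skin of Cchcr1 mutants (n = 2), skin of Cchcr1 mutants labelled as normal (n = 4) and wild type skin, also normal (n = 2). Cchcr1 encodes a coiled-coil protein, and the series title describes mice edited with CRISPR/Cas9 that lose hair in patches. The allele, the age of the mice and the number of animals are not given in the sources used here. Sample titles carry a number, which was Mutant097 for hair loss 1 and mutant normal skin 1 and 2, Mutant113 for hair loss 2 and mutant normal skin 3 and 4, and Wild001 for both wild type samples. Hair loss 1 and 2 and mutant normal skin 1 and 2 lay in row 1 of the slide, and the other 4 samples in row 2. A title letter marks mutant normal skin 1 and 3 and wild type 1 as B, and mutant normal skin 2 and 4 and wild type 2 as A. Neither the number nor the letter is explained, and nothing states that replicates came from separate animals, so every p-value measures only the spread between these samples. Each comparison with wild type is also a comparison with title number Wild001, and the 2 cannot be told apart. Hair loss and the normal skin of Mutant097 also differed from wild type in slide row, which cannot be told apart in those comparisons either.

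Levels are log2 intensities relative to the 75th percentile of the array, so that 0 stands for that percentile. A level orders samples for 1 probe and does not order genes. The 75th percentile itself ran from 83.1 to 211.2 intensity units, and each array had 25424 to 30205 probes well above background. The sex-linked genes followed the title number: Xist was above background on 3 of 3 Mutant113 arrays and on 0 of the others, while the Y-linked Ddx3y and Eif2s3y showed the reverse. Basal and suprabasal epidermis markers were above background on every array, 5 of 5 in both lists. Hair matrix and cortex keratins were not: 7 of 7 were above background on each mutant array and 3 of 7 on each wild type array. Their summed signal, with the 75th percentile set to 1, was 1.33 and 2.11 in wild type, 158.5 to 1014 in mutant normal skin, compared with 631.4 and 1842 in hair loss. In a whole-skin sample, fewer cells of a type and less RNA per cell cannot be told apart.

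Peptidylarginine deiminases convert arginine residues of a protein to citrulline, which removes charge and loosens protein structure. Transglutaminases join glutamine and lysine residues of neighbouring chains with bonds that resist extraction. In the hair follicle both reactions act in turn on trichohyalin in the inner root sheath and medulla, and in the epidermis they act on keratins, filaggrin and the proteins of the cornified envelope. Human PADI3, TGM3 and TCHH, the trichohyalin gene, are the genes of uncombable hair syndrome.

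The 4 Padi genes lie side by side on mouse chromosome 4, in the order Padi4, Padi3, Padi1 and Padi2, between Padi6 and Sdhb. The 250 bases before their start sites are shown because these neighbours differed in how far they separated the groups. They come from the RefSeq promoter table for build GRCm38.p6, which held a window for 7 of the 8 genes, with Tgm2 missing. Each is written 5′ to 3′ on the strand of its gene, with motif matches in capitals. Padi3 is at chr4:140810649-140810898 on the minus strand, Padi1 at chr4:140845779-140846028 on the minus strand, Padi4 at chr4:140774204-140774453 on the minus strand and Padi2 at chr4:140906110-140906359 on the plus strand.
Padi3: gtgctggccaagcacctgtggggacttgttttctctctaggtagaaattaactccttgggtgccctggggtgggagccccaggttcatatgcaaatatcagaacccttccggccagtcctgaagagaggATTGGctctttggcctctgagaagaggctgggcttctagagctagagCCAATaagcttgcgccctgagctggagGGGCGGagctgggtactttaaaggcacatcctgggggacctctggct
Padi1: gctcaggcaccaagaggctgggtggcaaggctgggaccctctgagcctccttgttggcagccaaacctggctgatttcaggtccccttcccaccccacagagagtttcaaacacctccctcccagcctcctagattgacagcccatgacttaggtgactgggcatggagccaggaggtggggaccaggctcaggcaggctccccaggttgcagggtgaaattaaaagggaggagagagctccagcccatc
Padi4: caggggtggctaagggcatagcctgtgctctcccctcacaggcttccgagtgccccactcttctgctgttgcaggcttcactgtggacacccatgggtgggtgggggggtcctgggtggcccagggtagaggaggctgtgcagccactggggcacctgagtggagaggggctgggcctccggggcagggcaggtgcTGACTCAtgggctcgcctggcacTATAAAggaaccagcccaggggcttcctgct
Padi2: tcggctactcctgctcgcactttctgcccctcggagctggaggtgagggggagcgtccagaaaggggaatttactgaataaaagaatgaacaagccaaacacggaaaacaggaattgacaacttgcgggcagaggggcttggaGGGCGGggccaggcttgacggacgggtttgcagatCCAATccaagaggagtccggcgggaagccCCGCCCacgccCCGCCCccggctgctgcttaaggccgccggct

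On both strands, 5 motifs were searched. The TATA box was taken as TATAAA and the CCAAT box as CCAAT. The GC box was taken as GGGCGG. The AP-1 site was taken as TGANTCA. The site of the TCF and LEF factors was taken as CTTTGAT. The window of Padi3 held CCAAT at 74 bases before the start, its reverse complement ATTGG at 121, and GGGCGG at 47. That of Padi4 held TATAAA at 31 and TGACTCA, a form of TGANTCA, at 54 bases before the start. Padi2 had CCAAT at 72 and 3 GC boxes, at 107 and, as the reverse complement CCGCCC, at 43 and 32. Padi1 held 0 matches. In the windows shown, no match overlapped that of another motif. Of 32851 RefSeq windows of the same length, 33.8% contained CCAAT, 32.7% GGGCGG, 12.4% TATAAA, 6.75% TGANTCA and 3.21% CTTTGAT. These matches describe the letters in the windows only.

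Padi3, the deiminase of hair shaft and root sheath and the enzyme that citrullinates S100A3, separated the groups most widely of the 8 genes. Its log2 level was 6.09 and 4.63 in hair loss 1 and 2. In mutant normal skin 1 to 4 it was 4.09, 2.83, 5.49 and 4.42. In wild type 1 and 2 it was -3.63 and -4.08, not well above background on either array. All 6 mutant samples therefore lay above both wild type samples, while hair loss and mutant normal skin overlapped.

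Hair loss had a group mean of 5.36 ± 1.03 (SD, n = 2), mutant normal skin one of 4.21 ± 1.1 (SD, n = 4) and wild type one of -3.86 ± 0.32 (SD, n = 2). Because Padi3 was at background on the wild type arrays, the fold change was computed against the lowest signal above background there. Against that signal, Padi3 was 192-fold higher in mutant normal skin and 425-fold higher in hair loss. These folds are not strict lower bounds, because a probe at background can exceed that signal and another background correction gave smaller differences. Leaving out 1 array at a time gave folds of 142 to 264 and of 256 to 705. The 705-fold value was the one without hair loss 2, and the 256-fold value the one without hair loss 1.

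**Figure D1:**
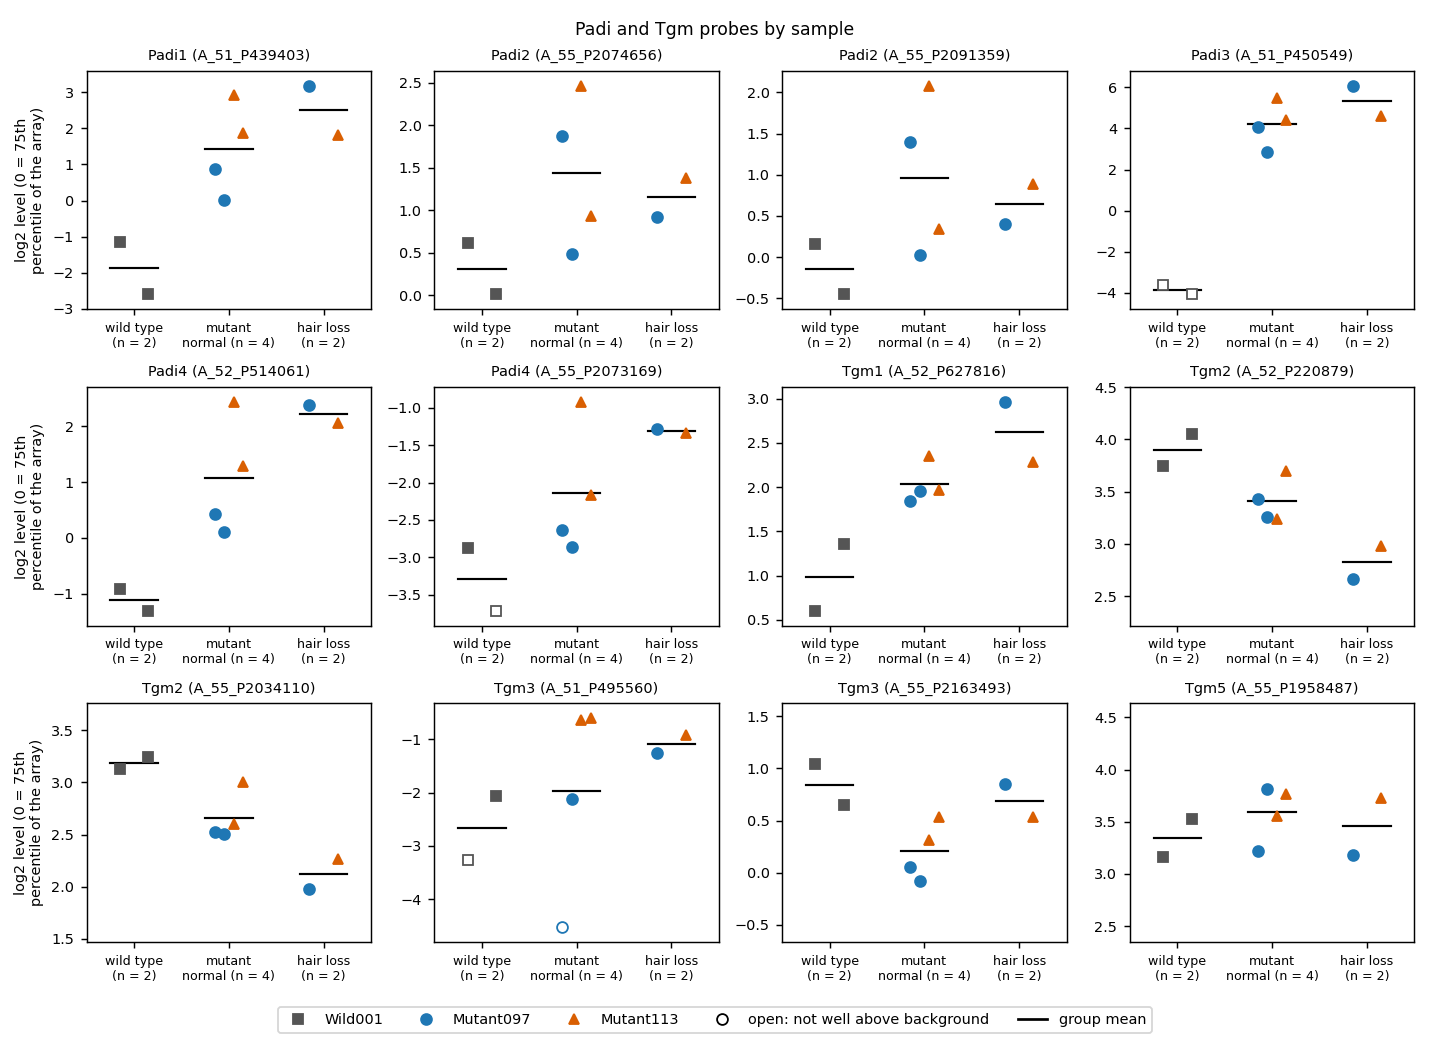
Log2 level of each of the 12 Padi and Tgm probes (0 = 75th percentile of the array) in 8 samples, by group, with symbols for the title number, open symbols for values not well above background and a line at the group mean. Padi3 lies between 2.83 and 6.09 in the 6 mutant samples and at -3.63 and -4.08 in wild type, while Tgm5 spans 0.65 over all 8.

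On the measured values, Padi3 was higher in mutant normal skin than in wild type by 8.06 on the log2 scale (limma adjusted p 0.00761, SE 0.70). It was the 1 member probe of 12 called there, where limma called 0.694% of all probes at an adjusted p under 0.05. Hair loss stood above wild type by 9.21 (limma adjusted p 0.00825, SE 0.80), again the 1 call among 12 member probes beside 1.42% of all probes. Padi3 passed the filter for testing only through its mutant arrays, being above background on 0 wild type arrays. Both calls therefore set the mutants against wild type values at background. They were kept when no filter on dim probes was used. Hair loss stood above mutant normal skin by 1.15 (limma adjusted p 0.999, SE 0.70), which did not pass. The calls against wild type depended on single arrays. For mutant normal skin against wild type the limma adjusted p became 0.0756 without wild type 1 and 0.0759 without wild type 2. For hair loss against wild type it became 0.0691, 0.0631 and 0.0799 without wild type 1, wild type 2 and hair loss 1. Over all alternatives the limma adjusted p ran from 0.0017 to 0.44 in mutant normal skin and from 0.00251 to 0.159 in hair loss, the highest with 1 mean per title number and group. Under normexp, a model-based background correction, the differences were 5.12 and 6.25. These are smaller than the 7.58 and 8.73 on the log2 scale behind the folds above. The summed hair matrix and cortex keratin signal given above moved with Padi3, and its part in the result was not tested.

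Padi1 is expressed in the differentiating epidermis and the inner root sheath and can act on keratins and trichohyalin. Its log2 level was 3.18 and 1.82 in hair loss, 0.87, 0.02, 2.92 and 1.88 in mutant normal skin, compared with -1.14 and -2.60 in wild type. It was above background on all 8 arrays. The 6 mutant samples again lay above both wild type samples. Mutant normal skin stood above wild type by 3.29 (limma adjusted p 0.134, SE 0.82), a 9.79-fold difference that did not pass the threshold. Hair loss stood above wild type by 4.37 (limma adjusted p 0.0656, SE 0.95) and mutant normal skin by 1.08 (limma adjusted p 0.999, SE 0.82). The hair loss contrast with wild type depended on the setting: it was 6.33 (limma adjusted p 0.02) with the slide row as a block, where the row effect comes from the mutant normal skin alone and coincides there with the title number, and 5.05 within Mutant097 (limma adjusted p 0.031). Without mutant normal skin 3 its limma adjusted p was 0.0415.

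Padi4 is best known from granulocytes, where it citrullinates histones during the release of extracellular traps. With probe A_52_P514061 its log2 level was 2.38 and 2.05 in hair loss, 0.43, 0.10, 2.44 and 1.29 in mutant normal skin, compared with -0.92 and -1.31 in wild type. With probe A_55_P2073169 the levels were -1.28 and -1.34, then -2.63, -2.86, -0.92 and -2.17, then -2.87 and -3.72, the last not above background. Both probes placed the mutant samples above wild type, although mutant normal skin 2 and wild type 1 lay within 0.01 of each other on the second. For the first probe, hair loss stood above wild type by 3.33 (limma adjusted p 0.0602, SE 0.68), mutant normal skin stood above wild type by 2.18 (limma adjusted p 0.154, SE 0.59) and hair loss stood above mutant normal skin by 1.15 (limma adjusted p 0.988, SE 0.59). The corresponding differences for the second probe were 1.98, 1.15 and 0.84, and none passed. Under other settings hair loss against wild type was called for both probes with the slide row as a block (4.93 and 3.19, limma adjusted p 0.00835 and 0.0445) and without mutant normal skin 3 (limma adjusted p 0.015 and 0.0441).

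Neutrophil markers are given beside Padi4. The summed signal of the 9 such genes on the array was 239.6 and 159.8 in hair loss, 127.9 to 217.1 in mutant normal skin, compared with 191.1 and 111.2 in wild type. Csf3r, the receptor of a granulocyte growth factor, made up most of that sum, at log2 levels of 6.67 to 7.83. S100a9, a subunit of calprotectin, was at 2.86 and 2.47 in hair loss, 1.30, 0.87, 2.40 and 1.52 in mutant normal skin, compared with 0.83 and 1.81 in wild type. S100a8, its partner subunit, was at 1.47 and 1.03, then 0.42, -1.09, 1.16 and 0.27, then -1.31 and -0.25. Hair loss was thus highest for S100a9, and overlapped mutant normal skin for S100a8. Elane went the other way against wild type, at 0.04 and -0.70 in hair loss compared with 1.17 and 0.31 in wild type. Against wild type, 4 of the 8 genes tested were lower in hair loss and 5 in mutant normal skin. Of the 8 genes tested, 0 were called. At an unadjusted p under 0.05, 3 were higher in hair loss than in mutant normal skin, beside 6.1% of all genes, and 3 higher than in wild type, beside 25.8%, while Camp was lower in mutant normal skin than in wild type at that mark (-1.14, limma adjusted p 0.122). Ngp was above background on 0 arrays, Cxcr2 on 2, both from mutants, and Mpo on 3, of which 2 were wild type. The part of these cells in the Padi4 values was not tested.

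Padi2, the most widely expressed deiminase, differed least within its family. With probe A_55_P2074656 its log2 level was 0.92 and 1.38 in hair loss, 1.87, 0.49, 2.47 and 0.93 in mutant normal skin, compared with 0.61 and 0.01 in wild type. Mutant normal skin and wild type overlapped, and the hair loss samples lay within the range of mutant normal skin. The differences from wild type were 1.13 (limma adjusted p 0.325, SE 0.53) in mutant normal skin and 0.84 (limma adjusted p 0.421, SE 0.61) in hair loss. Hair loss minus mutant normal skin was -0.29 (SE 0.53). The other probe, A_55_P2091359, gave 1.11, 0.79 and -0.32 for the same contrasts.

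Among the transglutaminases, Tgm1 is the membrane-anchored enzyme that builds the cornified envelope of the epidermis. Its log2 level was 2.96 and 2.29 in hair loss, 1.85, 1.96, 2.35 and 1.97 in mutant normal skin, compared with 0.60 and 1.36 in wild type. All 6 mutant samples were above wild type, and hair loss 2 lay below mutant normal skin 3. Hair loss stood above wild type by 1.65 (limma adjusted p 0.0596, SE 0.34) and mutant normal skin stood above wild type by 1.05 (limma adjusted p 0.159, SE 0.29). Hair loss stood above mutant normal skin by 0.59 (limma adjusted p 0.985, SE 0.29).

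Tgm2, the broadly expressed tissue transglutaminase of fibroblasts and vessels, ran the other way. With probe A_52_P220879 its log2 level was 2.66 and 2.98 in hair loss, 3.43, 3.26, 3.24 and 3.70 in mutant normal skin, compared with 3.75 and 4.05 in wild type. With probe A_55_P2034110 it was 1.98 and 2.26, then 2.52, 2.50, 2.60 and 3.0, then 3.12 and 3.24. On both probes of this 1 gene the groups did not overlap, with hair loss lowest and wild type highest. The share of all probes with the groups in such an order was not computed. Hair loss minus wild type was -1.08 (limma adjusted p 0.0676, SE 0.24) and -1.06 (limma adjusted p 0.0672, SE 0.23) for the 2 probes. Mutant normal skin minus wild type was -0.49 and -0.53, and hair loss minus mutant normal skin -0.59 and -0.53, with limma adjusted p values of 0.923 and 0.936 for the latter. None passed the threshold.

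Markers of cell types are given beside Tgm2. The summed signal of 5 fibroblast genes was 1311 and 1866 in wild type, 466.2 to 1293 in mutant normal skin, compared with 631.6 and 873.5 in hair loss. That of 5 endothelial genes was 10.7 and 29.9 in wild type, 10.4 to 20.3 in mutant normal skin, compared with 8.54 and 15.7 in hair loss. That of 7 skeletal muscle genes was 1043 and 1062 in wild type, 386.1 to 1067 in mutant normal skin, compared with 510.5 and 166.2 in hair loss. All genes of the 3 lists were above background on every array. The fibroblast sum was highest in wild type like Tgm2 but overlapped between hair loss and mutant normal skin, and the endothelial sums overlapped throughout. Kdr made up most of the endothelial sum, at log2 levels of 2.47 to 4.77. Of the 5 endothelial genes, 4 were lower than in wild type and 1 higher, both in hair loss and in mutant normal skin. Their medians were -0.66 and -0.34, and 0 were called. At an unadjusted p under 0.05 stood Pecam1 alone, beside 25.8% and 16.8% of all genes. Pecam1 was at -0.35 and -0.51 in wild type and at -1.45 to -0.84 in the mutants. All 7 muscle genes were lower in each of the 3 comparisons, with medians of -1.58 between hair loss and mutant normal skin, -0.66 between mutant normal skin and wild type and -2.48 between hair loss and wild type. Mylpf, a myosin light chain gene, was the 1 muscle gene called, lower in hair loss than in wild type (-2.60, limma adjusted p 0.0466), beside 1.62% of all genes. The part of any of these in the Tgm2 values was not tested.

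Tgm3 crosslinks trichohyalin in the follicle and envelope proteins in the epidermis, and its 2 probes disagreed. Probe A_55_P2163493 was above background on all 8 arrays, at log2 levels of 0.85 and 0.53 in hair loss, 0.05, -0.08, 0.32 and 0.54 in mutant normal skin, compared with 1.04 and 0.64 in wild type. Probe A_51_P495560 gave -1.27 and -0.92, then -4.53, -2.12, -0.64 and -0.61, then -3.26 and -2.07, and was not above background in mutant normal skin 1 and wild type 1. On the brighter probe mutant normal skin was lowest, by -0.63 against wild type (limma adjusted p 0.239, SE 0.23), whereas on the other it was higher than wild type by 0.69 (limma adjusted p 0.764, SE 1.04). Hair loss stood above mutant normal skin on both, by 0.49 (limma adjusted p 0.985, SE 0.23) and 0.88 (limma adjusted p 0.999, SE 1.04). No direction against wild type is therefore given for Tgm3.

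Tgm5, a further transglutaminase of the cornified envelope, varied least. Its log2 level was 3.18 and 3.73 in hair loss, 3.22, 3.82, 3.56 and 3.76 in mutant normal skin, compared with 3.17 and 3.53 in wild type. The 3 groups overlapped, and its differences were -0.13 (SE 0.25) between hair loss and mutant normal skin, 0.24 (SE 0.25) between mutant normal skin and wild type and 0.11 (SE 0.29) between hair loss and wild type.

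**Figure D2:**
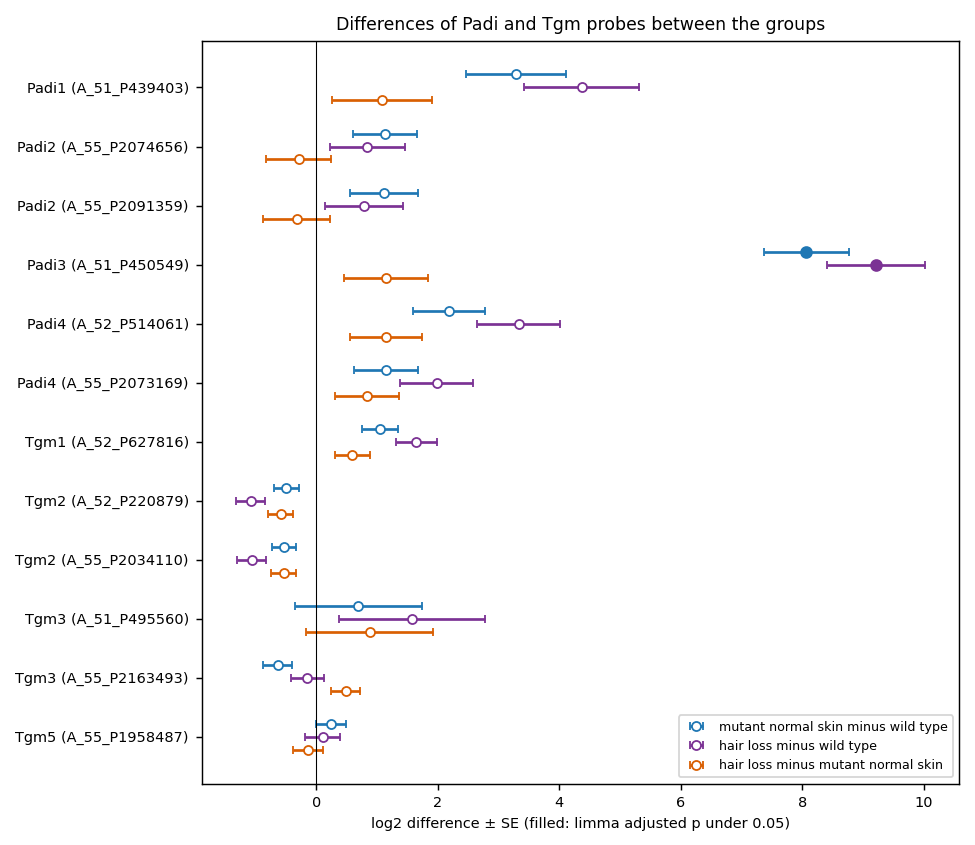
Log2 difference ± SE of the 12 probes for the 3 pairs of groups, from 1 limma fit, with filled points for an adjusted p under 0.05. The filled points are Padi3 against wild type, at 8.06 and 9.21, and both Tgm2 probes lie below 0 in all 3 comparisons.

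Hair loss and mutant normal skin together showed 0 called member probes, and limma called 0% of all probes in that contrast. At an unadjusted p under 0.05 the members numbered 2 of 12, both of them Tgm2 and both lower, beside 5.2% of all probes. The median difference over the 12 member probes was 0.54 there, 1.08 between mutant normal skin and wild type and 1.21 between hair loss and wild type. Over all probes tested the corresponding medians were -0.01, -0.04 and -0.06.

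The contrast of hair loss with normal skin was then taken within each title number, where 1 hair loss array faced 2 normal skin arrays and was assumed to vary like the other groups. In Mutant097 all 3 arrays were in slide row 1, whereas in Mutant113 hair loss was in row 1 and normal skin in row 2, so that row and hair loss cannot be told apart within Mutant113 or in the difference between the 2 title numbers. Within Mutant097, hair loss was higher by 2.74 for Padi1 (SE 0.76), 2.63 for Padi3 (SE 0.66), 2.12 for Padi4 on probe A_52_P514061 (SE 0.50) and 1.06 for Tgm1 (SE 0.37). Tgm3 was higher there by 0.87 on the brighter probe (SE 0.26). Limma called 0 of the 12 member probes, with 0.628% of all probes called, and 5 reached an unadjusted p under 0.05, all higher, beside 13% of all probes.

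Within Mutant113 the same differences were -0.58, -0.33, 0.19, 0.13 and 0.10. Limma called 0 member probes against 0.00329% of all probes, and 0 reached an unadjusted p under 0.05 against 4.8%. Tgm2 differed alike in the 2 title numbers, by -0.68 and -0.49 on probe A_52_P220879 and by -0.53 and -0.54 on probe A_55_P2034110. Padi2 was also alike, at -0.26 and -0.31 on probe A_55_P2074656.

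The difference between the 2 title numbers, Mutant113 minus Mutant097, was tested directly. It was -3.32 for Padi1 (limma adjusted p 0.445, SE 1.07), -2.95 for Padi3 (limma adjusted p 0.433, SE 0.93) and -1.93 for Padi4 on probe A_52_P514061 (limma adjusted p 0.502, SE 0.71). Limma called 0 of the 12 probes and 0% of all probes. These 3 probes were the members with an unadjusted p under 0.05, beside 9.5% of all probes. The summed hair matrix and cortex keratin signal differed in the same way. It was 1842 in the hair loss sample and 166.1 and 158.5 in the normal skin of Mutant097, but 631.4 in the hair loss sample and 1014 and 708.8 in the normal skin of Mutant113, and its part in the Padi differences was not tested.

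**Figure D3:**
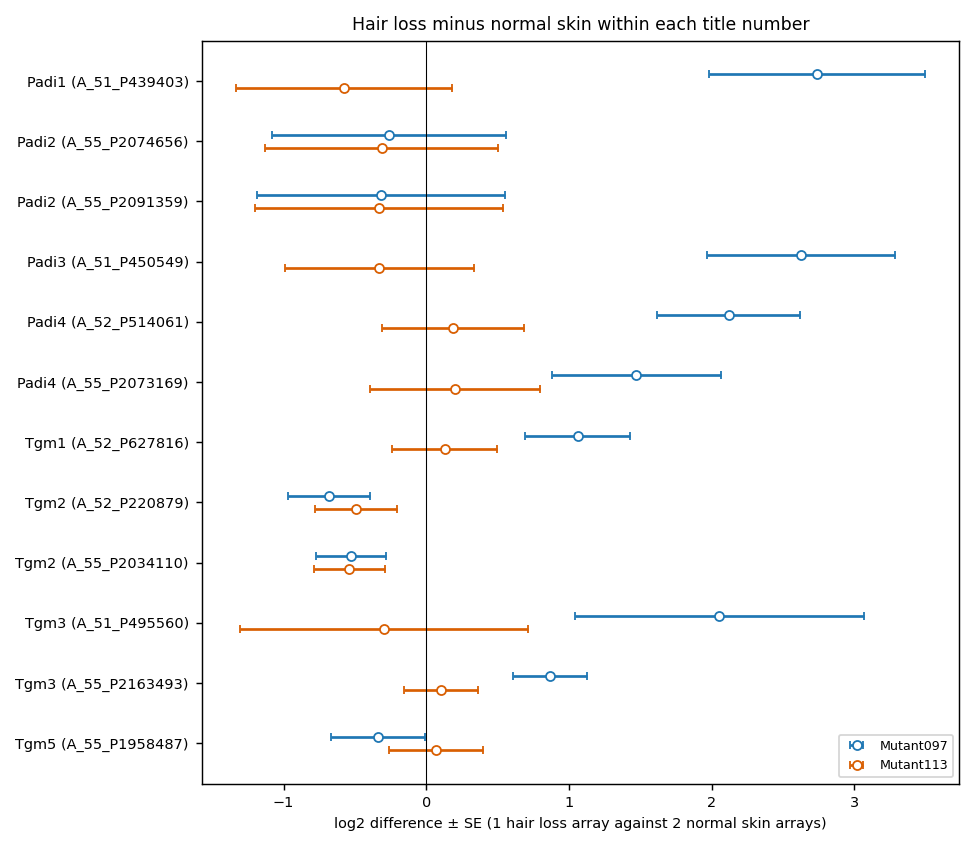
Log2 difference ± SE between hair loss and normal skin for the 12 probes, within Mutant097 and within Mutant113 (1 hair loss array against 2 normal skin arrays each). Padi1, Padi3 and Padi4 stand at 2.74, 2.63 and 2.12 in Mutant097 and near 0 in Mutant113. For Tgm2 the 2 title numbers stand at -0.68 and -0.49 on probe A_52_P220879 and at -0.53 and -0.54 on probe A_55_P2034110.

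The normal skin of the 2 mutant title numbers differed in level. All 12 member probes were higher in Mutant113 than in Mutant097, with a median of 0.51 beside -0.05 over all probes. The difference was 1.96 for Padi1 (limma adjusted p 0.246, SE 0.62), 1.50 for Padi3 (limma adjusted p 0.284, SE 0.54) and 1.60 for Padi4 on probe A_52_P514061 (limma adjusted p 0.192, SE 0.41). Both Padi2 probes, Tgm5 (0.14, SE 0.27) and Tgm2 on probe A_52_P220879 (0.13, SE 0.23) changed sign with certain single arrays left out. Limma called 0 member probes, beside 0.266% of all probes, and 4 had an unadjusted p under 0.05, beside 15.8% of all probes. Title number, the sex-linked genes and the row of the slide coincide in this contrast and cannot be told apart.

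Against wild type, the normal skin of Mutant097 had 1 called member probe, Padi3 (7.32, limma adjusted p 0.00842), where limma called 0.999% of all probes. The normal skin of Mutant113 had 3, where limma called 3.26% of all probes. They were Padi3 (8.81, limma adjusted p 0.0017), Padi1 (4.27, limma adjusted p 0.0312, SE 0.62) and Padi4 on probe A_52_P514061 (2.98, limma adjusted p 0.027, SE 0.41). Mutant113 and wild type samples shared a slide row and differed in the sex-linked genes. In Mutant097, where those genes matched the wild type but the slide row did not, Padi1 was higher by 2.31 (limma adjusted p 0.143, SE 0.62) and Padi4 by 1.38 (limma adjusted p 0.161, SE 0.41).

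The Padi probes also differed between the title letters, without passing the threshold. In normal skin, sample A was lower than sample B of the same title number for all 6 Padi probes in both mutant numbers. These probes read 4 genes, and the share of all probes with that direction in both numbers was not computed. Over all probes the median of A minus B was -0.003. In Wild001 it was lower for the 4 of these probes above background in both samples. Padi3 was at background in both Wild001 samples and the dimmer Padi4 probe in wild type 2, so their differences there have no exact value. The difference, A minus B, was -0.85, -1.04 and -1.46 for Padi1 in Mutant097, Mutant113 and Wild001. For Padi2 on probe A_55_P2074656 it was -1.38, -1.54 and -0.60. For Padi3 it was -1.26 and -1.08 in the mutants.

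Blocking on title number gave a difference of -1.11 for Padi1 (limma adjusted p 0.73, SE 0.19) and -1.17 for Padi2 (limma adjusted p 0.783, SE 0.24). Limma called 0 of the 12 member probes and 0% of all probes. At an unadjusted p under 0.05 stood 6 of 12 member probes, the 6 Padi probes, beside 5.01% of all probes, where the values of Padi3 and the dimmer Padi4 probe include wild type signals at background. The 6 Tgm probes had differences from -0.10 to 1.21, and none of them reached that mark. The summed hair matrix and cortex keratin signal was also lower in A, at 158.5 against 166.1 in Mutant097, 708.8 against 1014 in Mutant113 and 1.33 against 2.11 in Wild001. In Mutant097 the lower sum came from Krt35 alone, at a log2 level of 4.96 in A against 6.17 in B. The other keratins of the list were higher in A there, such as Krt34 at 4.33 against 3.65. The summed signal of 5 melanocyte markers differed more between the letters in the mutants, at 21.4 in A against 78.4 in B of Mutant097, 12.6 against 31.7 in Mutant113 and 20.6 against 24.2 in Wild001. In Wild001 the melanocyte sum came mostly from Mlana, at a log2 level of 4.175 in A and 4.173 in B. The other melanocyte genes were lower in A there, such as Pmel at -2.555 against -0.603 and Dct at 0.951 against 2.283. The part of the keratin or melanocyte genes in the difference between letters was not tested.

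**Figure D4:**
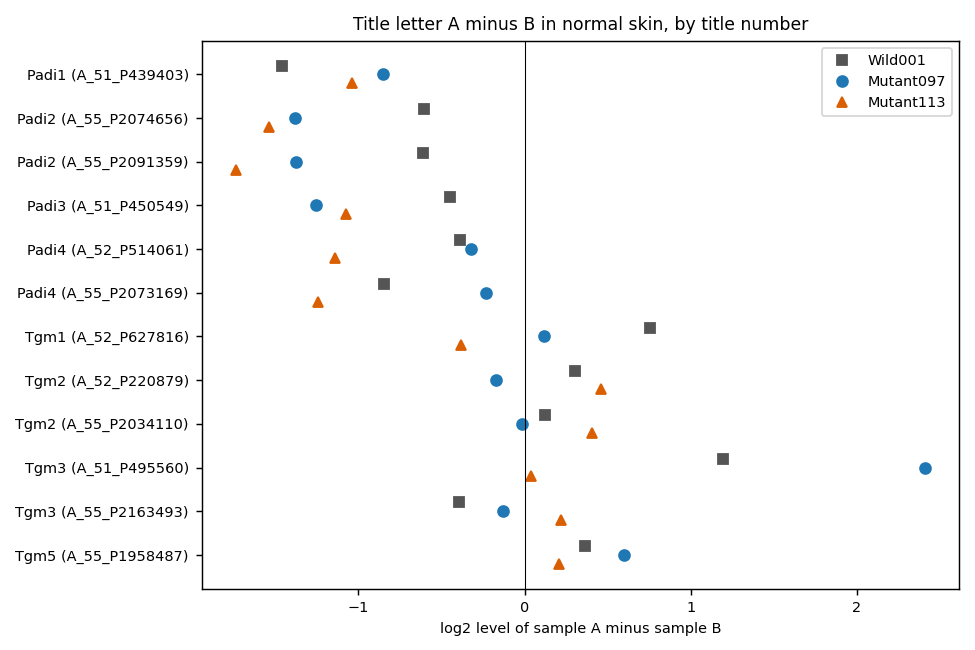
Log2 level of sample A minus sample B in normal skin for the 12 probes, 1 point per title number. All points of the 6 Padi probes lie below 0, between -1.74 and -0.23, whereas the Tgm points fall on both sides of 0. Both Wild001 samples of Padi3 and 1 of the dimmer Padi4 probe are at background.

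Substrates of these enzymes in the inner root sheath and hair shaft were higher in the mutants. Of 12 such genes tested, 9 were called in mutant normal skin against wild type and 9 in hair loss against wild type, all higher, where limma called 0.758% and 1.62% of 14774 genes at 1 probe each. Trichohyalin (Tchh), the joint substrate of deiminases and Tgm3, was at 8.68 and 7.81 in hair loss, 7.17, 5.94, 8.44 and 7.80 in mutant normal skin, compared with 0.02 and -0.72 in wild type. It rose by 7.69 in mutant normal skin (limma adjusted p 0.00724, SE 0.65) and by 8.60 in hair loss (limma adjusted p 0.00825, SE 0.75). The mutant samples lay above wild type throughout.

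S100a3, a calcium-binding protein of the hair cuticle, rose by 7.52 in mutant normal skin (limma adjusted p 0.00695, SE 0.61) and by 8.59 in hair loss (limma adjusted p 0.00825, SE 0.71). Keratins of the inner root sheath followed, with rises in mutant normal skin of 9.09 for Krt71, 6.67 for Krt73 and 5.65 for Krt28. The trichohyalin-like Tchhl1 rose by 7.98. Krt25 and Krt27 were called too, but each was at background in wild type 2, so that no exact difference is given. In mutant normal skin Krt25 was at 5.12 to 7.5 and Krt27 at 5.10 to 7.94, compared with -2.28 and -1.95 in wild type 1. Krt26 was at background on both wild type arrays. Against the lowest signal above background there, it was 50.6-fold higher in mutant normal skin and 101-fold higher in hair loss.

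The other 3 genes of the list were not called. Krt72 and Krt74 are inner root sheath keratins, and Krt74 was also at background in both wild type samples. Vim, a mesenchymal intermediate filament that deiminases citrullinate, was at 5.65 to 6.55 over all samples. The list median was 7.60 in mutant normal skin and 8.59 in hair loss against wild type. It was 7.10 and 7.95 with the 2 genes at background set against the lowest signal above background there. The median of all genes was 0.02 in both contrasts. Without wild type 1 the list had 2 calls in each contrast, and without wild type 2 it had 0. Without hair loss 1 it had 0 in hair loss against wild type. Hair loss and mutant normal skin differed by a list median of 0.86, with 0 genes called beside 0% of all genes and 0 at an unadjusted p under 0.05 beside 6.1%.

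By the root mean square distance between centred log2 levels over the 8 arrays, the genes closest to Padi3 among 16929 candidate probes were Krt26 (0.26), Tchh (0.30) and S100a3 (0.32). Padi3 and Krt26 were both at background in both wild type samples, so their distance rests partly on values with no order. Closest to Padi1 were Serpina1e (0.31), Serpina1a (0.34) and Serpina1c (0.35), members of a family of near-identical protease inhibitor genes whose probes may not tell them apart. Padi4 on probe A_52_P514061 was closest to Cpsf4l (0.28), Serpina1e (0.31) and Gpx2 (0.32), and on probe A_55_P2073169 to Fgf22 (0.18), Phactr1 (0.22) and Jmy (0.25). For Padi2, Shisa2, Tafa5 and Cited1 were closest on both probes, at 0.35, 0.37 and 0.38 for the first. Among the genes closest to Tgm1 were Tmem40 (0.12) and Bnc2 (0.13). The dimmer Tgm3 probe had no near neighbour, with Tmem171 at 0.63, Hephl1 at 0.69 and Tac4 at 0.71.

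**Figure D5:**
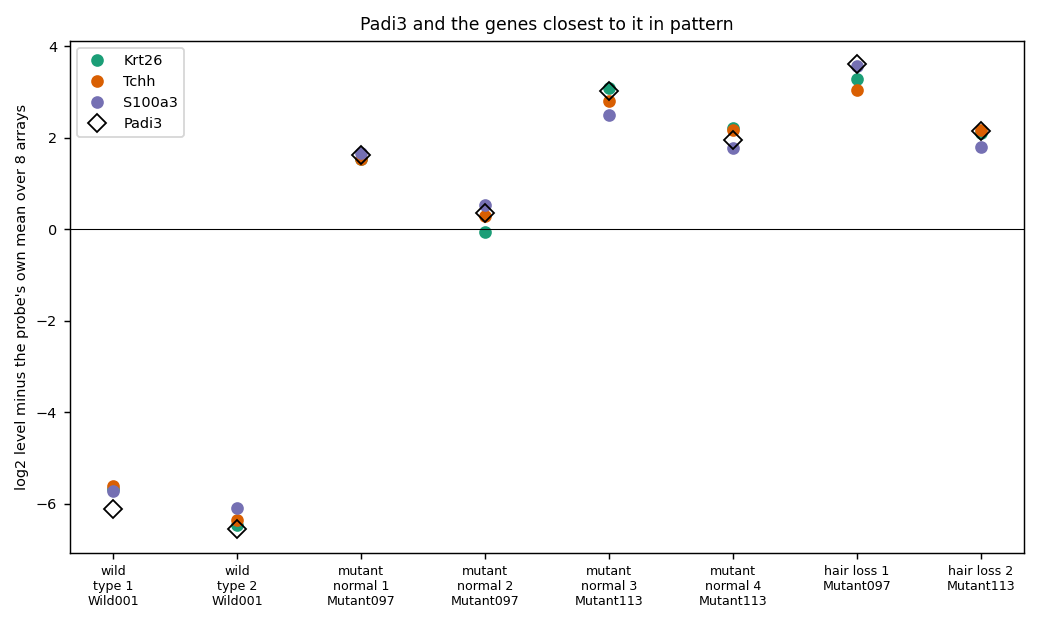
Log2 level minus the mean of the probe over the 8 arrays, for Padi3 (diamonds) and the 3 genes closest to it in pattern, by sample. The 4 genes lie within 1 log2 unit of each other in every sample, below -5 in wild type and highest in hair loss 1.

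The epidermal side of the pathway gave fewer calls. Of 20 cornified envelope and epidermal substrate genes tested, 0 were called in any of the 3 comparisons. At an unadjusted p under 0.05, 7 of these 20 were higher in hair loss than in mutant normal skin, beside 6.1% of all genes. The counts against wild type were 7 in mutant normal skin, beside 16.8% of all genes, and 13 in hair loss, beside 25.8%. The list medians were 0.68, 0.62 and 1.07. Loricrin (Lor), the main protein of the envelope, stayed between 9.03 and 9.65 over all 8 samples, and Krt10 between 7.57 and 8.12. Cdsn, which encodes a protein of corneodesmosomes, was at 7.33 and 7.02 in hair loss, 6.31 to 7.07 in mutant normal skin, compared with 6.34 and 6.76 in wild type, and Lce1a1, a late envelope gene, at 7.18 and 7.47, 6.53 to 6.78, and 5.88 and 6.39. The count in hair loss against wild type was 6 without mutant normal skin 3 and 1 without mutant normal skin 1, and the count between hair loss and mutant normal skin was 1 without mutant normal skin 3. For Lce1a1 the hair loss samples lay above the others and the wild type samples below them. Other members of the list, named after their values were seen, differed more without passing. Lce3c was at 2.87 and 2.67 in hair loss, -1.10 to 2.17 in mutant normal skin, compared with -1.61 and -0.52 in wild type. Hair loss minus wild type was 3.84 for Lce3c, 2.56 for the S100-fused protein gene Rptn, 2.26 for Sprr1a and 2.17 for Cnfn, with limma adjusted p values of 0.0757, 0.0642, 0.0653 and 0.0667. Sprr2h, Sprr1b and Sprr2d, small proline-rich envelope genes, differed by 7.37, 7.09 and 4.95 but were above background on only 6, 6 and 3 arrays.

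Of 14 proteases and inhibitors that process these substrates or control the transglutaminases, 2 were called between hair loss and wild type, both higher, beside 1.62% of all genes. They were Casp14, a protease of filaggrin breakdown (2.56, SE 0.31, limma adjusted p 0.0139), and Klk7, a protease of corneocyte shedding (1.72, SE 0.29, limma adjusted p 0.0382). Neither was called without hair loss 1, wild type 1 or wild type 2, and 1 was called without mutant normal skin 1, 2 or 4. None of the 14 was called between mutant normal skin and wild type, where 4 had an unadjusted p under 0.05 beside 16.8% of all genes. Hair loss against mutant normal skin gave no call either, and 6 reached that mark beside 6.1%. The brightest genes of the list, Cst6, Ctsd, Ctsb and Ctsl, were higher in hair loss than in mutant normal skin by 0.63, 0.51, 0.52 and 0.60 without passing. Cst6 encodes cystatin M/E, an inhibitor of cathepsin L and legumain. The median of the list was 0.54 between hair loss and mutant normal skin, 0.32 between mutant normal skin and wild type and 0.76 between hair loss and wild type.

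Among 14 transcription factors of follicle and epidermal differentiation, Hoxc13, which directs hair keratin expression, was higher in mutant normal skin than in wild type by 2.98 (limma adjusted p 0.0475, SE 0.48). Its level was 3.37 and 2.20 in hair loss, 1.37 to 2.81 in mutant normal skin, compared with -0.50 and -1.20 in wild type. It was the 1 gene of the list called there, beside 0.758% of all genes. Hoxc13 (3.63), Msx2 (3.34) and Tfap2a (1.15) were called between hair loss and wild type, beside 1.62%. At an unadjusted p under 0.05 stood 11 of the 14 in mutant normal skin and 10 in hair loss against wild type, all higher, beside 16.8% and 25.8%. The call in mutant normal skin was lost without mutant normal skin 1, 3 or 4 and without either wild type sample, and the 3 calls in hair loss without hair loss 1, mutant normal skin 4 or either wild type sample. The brightest members, Grhl1, Klf4, Gata3 and Dlx3, were not called in any comparison. The list medians were 0.27, 0.84 and 1.09 in the order used above, with 0 genes called and 1 at an unadjusted p under 0.05 between hair loss and mutant normal skin, beside 6.1% of all genes.

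Of 8 lipid envelope enzymes, 0 were called, with 1, 0 and 2 at an unadjusted p under 0.05 in the same order, beside 6.1%, 16.8% and 25.8% of all genes, and medians of 0.35, 0.02 and 0.48. Elovl4, which makes the very long fatty acids of that envelope, was 0.65 higher in hair loss than in mutant normal skin (limma adjusted p 0.99, SE 0.34). Of 6 relatives of the enzymes, Padi6, Tgm7 and the inactive family member Epb42 were on the array but not tested, being above background on fewer than 2 arrays. The other 3, F13a1, Tgm4 and Tgm6, gave 0 calls, with 0, 1 and 2 at an unadjusted p under 0.05 beside the same shares. F13a1, the coagulation factor XIII subunit found in macrophages, was at 4.24 and 4.0 in hair loss, 3.87 to 4.90 in mutant normal skin, compared with 5.22 and 5.33 in wild type. Its difference was -0.86 between mutant normal skin and wild type. The summed macrophage and leukocyte marker signal was likewise highest in wild type, at 120.9 and 147.5 against 57.6 to 95.6 in mutant normal skin, compared with 63.6 and 74.7 in hair loss, and its part was not tested.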

How the data were processed

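Total RNA of 8 skin samples was labelled with Cy3 and hybridised to 1-colour Agilent mouse arrays, 8 arrays on 1 slide. Per the file headers, the spot intensity was background-corrected by Agilent Feature Extraction 11.5.1.1 on a design that names build mm9. The authors deposited a log2 matrix that equals the log2 of that processed intensity after 1 shift per array. Here, log2 processed intensity was averaged over unflagged spots of a probe (118 to 210 flagged spots per array, 0 saturated), and the 75th percentile of the array was subtracted. A probe was tested when well above background on at least 2 arrays. RefSeq names were matched for 19195 of 30417 probes tested (14774 genes).

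Differences between groups came from limma 3.58.1 (R 4.3.3), in 1 model of 3 groups on all arrays (5 residual and 2.71 prior degrees of freedom), two-sided, with Benjamini-Hochberg adjustment over all probes and a threshold of 0.05. A second model of group and title number gave contrasts within and between numbers, and another compared letters in the 6 normal skin arrays with the number as a block. Gene lists used the brightest probe of each gene. Named besides the members were the 4 brightest genes and the called genes of each list, with further genes where a count called for it, and the 3 nearest in pattern to any member probe spanning 2 log2 units. One gene near Tgm1 in pattern is not reported here. The members and lists were chosen with earlier results of these data known. A fold against a group at background used, per array, the lowest signal above background or that of the probe if higher. Alternatives covered the background correction (normexp, offset 50, from median spot and background signals), quantile normalization, the filter on dim probes, the deposited log2 matrix, probe averaging, moderation, title number, slide row and leaving out each array. Some were added after the values were seen, namely the percentile over spots and quantile normalization for the lesion difference. So were the normexp, quantile and no-filter versions for the contrasts between title numbers and between letters. Leaving out arrays for lists and for folds against a group at background was also added then. The fit was tested on simulated data.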

Additional observations from a re-analysis of the deposited data

How the results depend on the processing

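The number of arrays, 2 to 4 per group, limits every comparison, and the wild type signal of Padi3 is at background. The call of Padi3 against wild type kept its direction under every alternative run and was lost without either wild type sample and with 1 mean per title number and group, and in hair loss also without hair loss 1. Over all 12 probes and 5 comparisons and the letters, 957 values of single probes kept direction and side of the threshold, 22 gained a call, 7 lost it and 34 changed sign. Calls gained in hair loss against wild type were those of Padi1 and both Padi4 probes with the slide row as a block and without mutant normal skin 3, Padi1 and Padi4 (A_52_P514061) within Mutant097 (limma adjusted p 0.031 and 0.0284), Padi4 (A_52_P514061) under normexp and the filter on all arrays of a group (limma adjusted p 0.0488 and 0.0453), and Tgm2 with trend and robust moderation (limma adjusted p 0.0355 for both probes) and Tgm1 there, under normexp, with that filter and within Mutant097 (limma adjusted p 0.0314, 0.0383, 0.0449 and 0.0452). Padi1 and Padi4 (A_52_P514061) were called in mutant normal skin with the slide row as a block (limma adjusted p 0.0289 and 0.0154), which compares Mutant113 with wild type. With the title number as a replicate block, the contrast of hair loss and mutant normal skin had 0 calls, as without it. The numbers were not shown to pair samples: with only 2 shared numbers, correlations of deviations were 0.019 to 0.209 within a number and -0.209 to -0.019 across, which mirror each other by construction.

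Over all probes, the 211 calls in mutant normal skin against wild type (82.9% higher) became 128 with no filter, 856 with the slide row as a block (48.4% higher), 991 within Mutant113 (54.3% higher) and 0 with 1 mean per number and group. The 432 in hair loss against wild type (69.9% higher) became 183 with no filter (87.4% higher), 839 with the filter on all arrays of a group, 1332 with the slide row (52.6% higher), 1028 with trend and robust moderation (59.6% higher), 1835 within Mutant097 (51.6% higher) and 0 with 1 mean. Hair loss against mutant normal skin gave 191 within Mutant097 and 1 within Mutant113. The difference of the lesion effect gave 287 under normexp and 3 under quantile normalization, Mutant113 against Mutant097 (81) gave 465, 146 and, with no filter, 19, and the letters gave 39 under normexp, among them Padi2 (A_55_P2091359, -1.04, limma adjusted p 0.0471). Leaving out 1 array gave 0 to 11 calls in hair loss against mutant normal skin, 0 to 191 in mutant normal skin and 0 to 708 in hair loss against wild type, 0 to 25 for the lesion difference, 6 to 99 for Mutant113 against Mutant097 and 0 to 1 for the letters. The cause of these shifts was not tested.

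For gene lists, in the order hair loss against mutant normal skin, mutant normal skin against wild type and hair loss against wild type, normexp medians were 0.0955 (first) and 0.052 (last) for family relatives and 6.07 and 6.92 (last pair) for hair substrates. Normexp counts were 4 for cornified envelope (last), 1 and 4 for proteases and 0 and 5 for transcription factors (last pair), and averaging the probes of a gene gave 1 for cornified envelope. Leaving out 1 array gave medians of 0.18 to 1.05, -0.26 to 0.46 and 0.34 to 1.24 for family relatives, 0.34 to 0.74 (first) and 0.59 to 0.98 (last) for proteases, -0.31 to 0.46 and 0.049 to 0.73 (last pair) for lipid enzymes and 0.011 to 0.41 and 0.59 to 1.05 (first pair) for transcription factors. Counts ran from 0 to 9 for hair substrates in both contrasts with wild type, 0 to 1 (first) and 0 to 6 (last) for cornified envelope, 0 to 2 for proteases (last), and 0 to 1 and 0 to 2 for transcription factors (last pair).

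Values of single probes that changed sign came mostly from 1 title number or 1 array left out, with the range over arrays left out given as lowest to highest. In hair loss against mutant normal skin within Mutant113 they were Padi1 -0.58, Padi3 -0.33, Tgm3 (A_51_P495560) -0.30 and Tgm5 0.067, and the ranges were -0.41 to 0.14 for Tgm5, -0.60 to 0.055 for Padi2 (A_55_P2074656) and -0.64 to 0.049 for Padi2 (A_55_P2091359). In mutant normal skin against wild type, Tgm3 (A_51_P495560) was -0.65 within Mutant097. In hair loss against wild type, Tgm3 (A_55_P2163493) was 0.29 with the slide row, 0.011 within Mutant097 and -0.35 to 0.047 over arrays left out, and Tgm5 was -0.17 within Mutant097 and -0.17 to 0.38. The lesion difference of Padi2 was 0.0145 (A_55_P2074656) and 0.047 (A_55_P2091359) under normexp and -0.82 to 0.72 and -0.88 to 0.85, and that of Tgm2 -0.042 to 0.42 (A_52_P220879) and -0.21 to 0.19 (A_55_P2034110). For Mutant113 against Mutant097, the ranges were -0.25 to 1.29 and -0.37 to 1.37 for Padi2, -0.15 to 0.44 for Tgm5 and -0.10 to 0.36 for Tgm2 (A_52_P220879). Between letters, Tgm1 ran from -0.13 to 0.44, and Tgm3 (A_55_P2163493) reached 0.045 without either wild type sample and was 0.0076 under normexp.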
